A study of Mus musculus with 10 samples.

Results

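The carbonic anhydrase genes Car1, Car2, Car3, Car4, Car8, Car12 and Car13 were described across 10 mouse colon libraries, with the posterior HOX gene Hoxb13 set beside them in each library. These 7 genes were taken by name from the deposited expression table, which lists 16 carbonic anhydrase genes among 18398 genes. They were chosen by their measured FPKM in these same libraries, so their values are given as a description and no test is drawn from them. The tissue was colon of wild-type mice. In all, 5 libraries came from mice on a normal diet (N1 to N5) and 5 from mice on a pro-inflammatory diet (P1 to P5). The labels used here give no strain, sex, age or length of feeding. They name neither the animal behind each library nor any induction of colitis. The p-values below therefore measure only the spread between these libraries, which may be technical in part. Each value is in FPKM, which counts fragments relative to the length of the gene and the size of the library, so levels of different genes are compared per length.

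Carbonic anhydrases interconvert carbon dioxide and water with bicarbonate and a proton, using a zinc ion that is held by histidines in the active site. In the colon the bicarbonate and protons made inside surface epithelial cells are exchanged for luminal chloride by Slc26a3 and for luminal sodium by Slc9a3, and this paired exchange absorbs salt and water. Car1, Car2, Car3 and Car13 encode cytosolic enzymes, Car4 an enzyme anchored to the outer face of the membrane by a lipid, Car12 a transmembrane enzyme with an extracellular active site, and Car8 a cytosolic relative without the enzyme's activity. Hoxb13 is expressed at the posterior end of the body axis, and in the gut its RNA is a marker of distal colon.

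The part of the coding sequence that holds the first 2 of the 3 zinc-binding histidines of Car2 (codons 94 and 96) is shown for 6 of the 7 genes, because it is the stretch by which these enzymes hold their zinc. Each window has 33 bases on the coding strand and was read from the GENCODE M21 transcript sequences. Capitals mark the codons aligned with these 2 histidine codons of Car2.
Car1: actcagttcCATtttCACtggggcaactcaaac
Car2: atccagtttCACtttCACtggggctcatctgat
Car3: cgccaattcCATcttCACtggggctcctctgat
Car13: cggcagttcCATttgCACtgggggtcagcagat
Car4: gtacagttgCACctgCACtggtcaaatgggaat
Car12: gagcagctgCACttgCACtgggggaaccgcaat
On the GRCm38 assembly, which is the same assembly as the mm10 build of the files, the Car1 window lies at chr3:14776266-14776298 on the minus strand. The Car2, Car3 and Car13 windows lie at chr3:14895060-14895092, chr3:14866841-14866873 and chr3:14650697-14650729 on the plus strand. Each of these is in exon 3 of its transcript. The Car4 window at chr11:84964158-84964190 and the Car12 window at chr9:66747638-66747670, both on the plus strand, are in exon 4. Histidine codons, CAT or CAC, stood at both capitalised places in these 6 genes, and the codon aligned with the third zinc-binding histidine of Car2 (codon 119) also encodes histidine in all 6.

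Car13, Car1, Car3 and Car2 lie in this order within 259044 bases of chromosome 3 (chr3:14641727-14900770). Car1 is on the minus strand and the other 3 are on the plus strand, with gaps of 103213, 55143 and 13749 bases between neighbours. GENCODE M21 places no other protein-coding gene in this span. Car4 lies at chr11:84957786-84966044, Car8 at chr4:8143362-8239041 and Car12 at chr9:66713686-66766845. No exon of the 7 genes overlaps an exon of another annotated gene, so reads of an overlapping or antisense neighbour do not enter these 7 values under that annotation.

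The libraries held between 15652783 and 18341956 reads on genes, as recovered from the steps of the deposited values. Among the 7 genes the smallest number of reads behind a value was 14, for Car3 in N5, and the next lowest gene, Car8, had at least 85 reads in each library. Libraries P2 and P5 stood apart in the marker of distal colon. Hoxb13 was at 211, 262, 218, 333 and 322 FPKM in N1 to N5 and at 312, 0.417, 292, 341 and 20.9 FPKM in P1 to P5. The summed FPKM of 5 posterior HOX genes (Hoxb13, Hoxd13, Hoxd12, Hoxa13 and Hoxd11) was 5.86 in P2 and 32.3 in P5, against 261 to 420 in the other 8 libraries, and each of the 5 was lower in P2 and P5 than in any other library. Both of these libraries carry the pro-inflammatory diet label, and none of the normal diet libraries is like them. Markers of epithelium (Epcam, Vil1, Cdh1, Cdh17, Krt8 and Krt19) summed to 5449 FPKM in P2 and 5835 in P5, within the range of 4243 to 6454 of the other 8, and none was at 0 in any library. Krt8 and Krt19 carry most of this sum. Of the 6 genes, Vil1 (305 and 317 FPKM, against at most 270.3) and Cdh17 (299 and 300.4, against at most 246) were above the other 8 in both P2 and P5, and Cdh1 (233 and 254, against at least 313) was below.

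**Figure D1:**
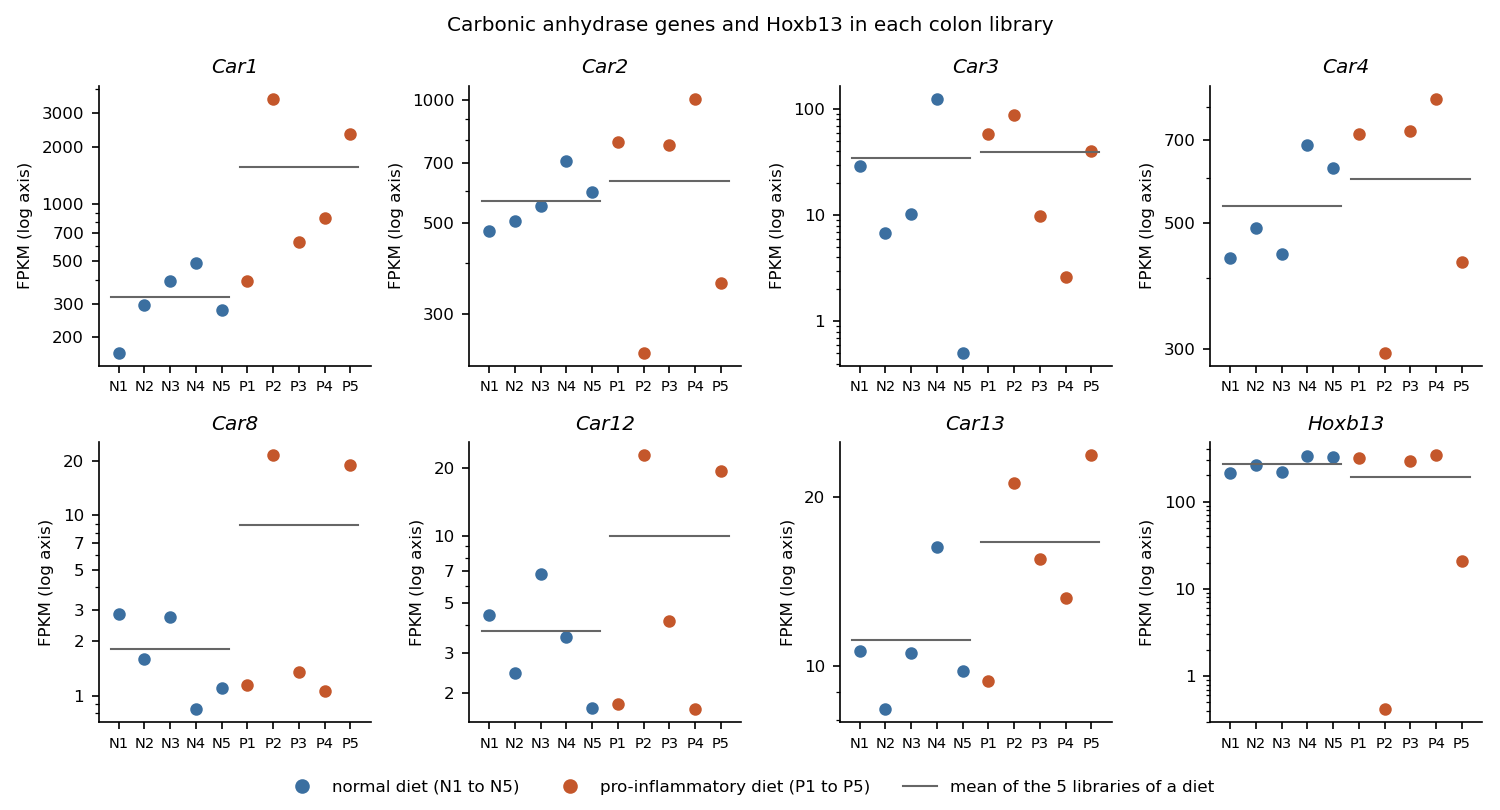
FPKM (log axes, scaled per gene) of the 7 carbonic anhydrase genes and Hoxb13 in each of the 10 libraries, with a line at the mean of each diet. In P2 and P5, where Hoxb13 is at 0.417 and 20.9, Car1, Car8, Car12 and Car13 are above all other libraries and Car2 and Car4 are below them.

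Car1, the low-activity cytosolic enzyme, was the most abundant carbonic anhydrase RNA in P2 and P5 and came after Car2 and Car4 in 7 of the other 8 libraries, as the values below show. It was at 165, 293, 392, 492 and 278 FPKM in N1 to N5 and at 395, 3568, 634, 845 and 2334 FPKM in P1 to P5. P2 and P5 were the highest libraries, at 9.06 and 5.93 times the median of the other 8, and P1 lay below N4, so the diets overlapped. Among all genes of its library Car1 ranked 3 in P2 and 6 in P5, and between 60 and 345 in the other 8.

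Car2, the fast cytosolic enzyme, was lowest in the libraries where Car1 was highest. Its values were 477, 506, 552, 708 and 595 FPKM in N1 to N5 and 789, 241, 777, 1007 and 357 FPKM in P1 to P5. P2 and P5 were the lowest, at 0.369 and 0.548 times the median of the other 8. P1, P3 and P4 were above all 5 normal diet libraries. Thus both the lowest and the highest Car2 values carried the same diet label.

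Car13, a cytosolic enzyme found in many tissues, was at 10.6, 8.38, 10.5, 16.3 and 9.81 FPKM in N1 to N5 and at 9.42, 21.1, 15.5, 13.2 and 23.8 FPKM in P1 to P5. P2 and P5 were again the highest libraries, at 1.999 and 2.25 times the median of the other 8. The highest normal diet library, N4, lay above P1, P3 and P4. Of the 4 genes that were highest in P2 and P5, Car13 had the smallest ratio.

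Car4, the lipid-anchored enzyme of the outer membrane face, was at 434, 489, 440, 686 and 624 FPKM in N1 to N5 and at 717, 295, 724, 826 and 426 FPKM in P1 to P5. P2 was at 0.451 and P5 at 0.651 times the median of the other 8. P2 and P5 were the lowest libraries, P5 only just below N1, and P1, P3 and P4 were above all normal diet libraries, as for Car2.

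Car12, the transmembrane enzyme, was at 4.46, 2.43, 6.73, 3.54 and 1.71 FPKM in N1 to N5 and at 1.77, 22.9, 4.17, 1.69 and 19.5 FPKM in P1 to P5. P2 and P5 stood at 7.69 and 6.55 times the median of the other 8. P1, P3 and P4 lay within or at the lower edge of the normal diet range. The 2 membrane-bound enzymes thus ran in opposite directions in these 2 libraries.

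Car8, the relative without enzyme activity, was at 2.84, 1.59, 2.75, 0.842 and 1.10 FPKM in N1 to N5 and at 1.14, 21.6, 1.36, 1.07 and 18.98 FPKM in P1 to P5. Its ratios to the median of the other 8, 17.3 in P2 and 15.2 in P5, were the largest of the 7 genes. P1, P3 and P4 lay inside the normal diet range.

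Set beside Hoxb13, 4 of the 7 genes (Car1, Car8, Car12 and Car13) were higher in P2 and in P5 than in any other library, 2 (Car2 and Car4) were lower, and Car3 was neither. Over all 12345 genes with a mean of at least 1 FPKM, 13.9% were above and 17.4% below the other 8 libraries in this sense. Since the 7 genes were chosen with these values known, nothing is read from the counts. Hoxb13 in P2 was at 0.00138 times and in P5 at 0.0692 times the median of the other 8, and P2 was also the more distant of the 2 libraries for Car1, Car2, Car4, Car8 and Car12. Within the normal diet Hoxb13 ranged from 211 to 333 FPKM, and no library there came near P2 or P5, so the values of low-Hoxb13 colon on the normal diet were not observed. In bulk tissue, fewer cells of a type and less RNA per cell cannot be told apart.

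Other cell markers also differed in P2 and P5. The summed FPKM of 6 surface colonocyte genes was 3858 in P2 and 4449 in P5, against 1951 to 2706 in the other 8. Of these 6, Krt20, Cdhr5, Ceacam1 and Guca2a were above the other 8 libraries in both, while Slc26a3 and Aqp8 were below. The sum of 6 leukocyte genes was 691 in P2 and 602 in P5, against 226 to 445 in the other 8. Cd74 made up most of this sum, at 633 and 561 FPKM, and none of the 6 was at 0. Cd3e, Cd74 and Itgam were above the other 8 in both, while Ptprc, Cd79a and Adgre1 were not. The sum of 6 goblet cell genes was 8982 and 9914, within the range of 8030 to 10007 of the other 8, but its genes differed. Muc2 (1867 and 1536 FPKM, against at most 1084) and Agr2 (2299 and 2274, against at most 1878) were above the other 8 in both, and Tff3 (917 and 888, against at least 1219) was below. The sum of 5 tuft cell genes was 11.3 in P2 and 11.2 in P5, against 4.47 to 9.59 in the other 8, with 3 of the 5 above in both. The part of these markers in the carbonic anhydrase values was not tested.

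Car1 and Car2 are also the main carbonic anhydrases of red blood cells. The summed FPKM of 5 red blood cell genes (Hba-a1, Hba-a2, Hbb-bs, Hbb-bt and Alas2) was 75.2 in P1, 66.7 in P3 and 85.2 in P5, and between 17.0 and 30.1 in the other 7. P2, with the highest Car1 value of 3568 FPKM, had a sum of 23.6, within the range of the normal diet libraries. The haemoglobin genes are near-identical copies, so their single values are uncertain. The part of blood in the Car1 and Car2 values was not tested.

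Car3, a cytosolic enzyme of low activity that is abundant in fat and skeletal muscle, varied most. It was at 29.2, 6.81, 10.2, 125 and 0.504 FPKM in N1 to N5 and at 58.2, 87.3, 9.88, 2.63 and 40.3 FPKM in P1 to P5. The highest library was 249 times the lowest, where the other 6 genes spanned 2.80 to 25.7 times. The lowest value rested on 14 reads, for which the exact 95% Poisson interval of 7.65 to 23.5 reads (0.275 to 0.845 FPKM) covers counting error only. Normal diet and pro-inflammatory diet libraries were mixed along the whole range.

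**Figure D2:**
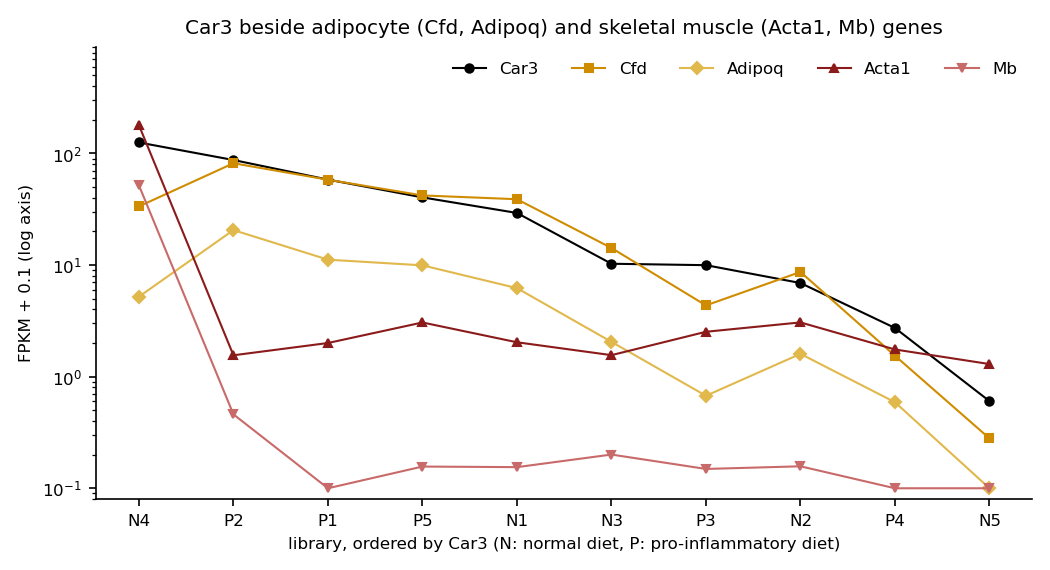
FPKM + 0.1 (log axis) of Car3, the fat cell genes Cfd and Adipoq and the skeletal muscle genes Acta1 and Mb in the 10 libraries, ordered from the highest to the lowest Car3. Cfd goes from 81.7 in P2 to 0.180 in N5 along this order, and Acta1 and Mb are high in N4, at 179 and 51.7.

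The 5 libraries highest in Car3 (N4, P2, P1, P5 and N1) were also the 5 highest in fat cell genes, with 8 such genes summing to 97.1 to 269 FPKM against 27.9 to 56.9 in the other 5. Cfd, the fat cell protease adipsin, was at 81.7, 58.1, 42.0 and 38.8 FPKM in P2, P1, P5 and N1, which hold places 2 to 5 in the order of Car3, and at 0.180 FPKM in N5, the lowest. Adiponectin (Adipoq) was at 20.5 FPKM in P2 and at 0 in N5. The sum ran from 27.9 to 107 in the normal diet and from 36.3 to 269 in the pro-inflammatory diet, and 3 of the 8 genes (Adipoq, Plin1 and Lep) were at 0 in at least 1 library. N4, first for Car3, had Cfd at 33.5 FPKM and differed from all other libraries in muscle genes. There 7 skeletal muscle genes summed to 606 FPKM, against 10.6 to 22.9 in the other 9 libraries, with Acta1, skeletal muscle actin, at 179 FPKM against 1.20 to 2.96. The part of fat and muscle tissue in the Car3 values was not tested.

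Car1, Car2 and Car4 together made up 91.6 to 98.3% of the summed FPKM of the 16 carbonic anhydrase genes in each library, but their proportions differed. Car1 made up 14.4 to 31.0% of the sum in the 8 libraries other than P2 and P5, 83.2% in P2 and 71.8% in P5. The share of Car2 was 34.4 to 41.5% in the 8, 5.61% in P2 and 10.97% in P5. The share of Car4 was 30.4 to 40.7%, 6.89% and 13.1%. The ratio of Car1 to Car2 thus went from 0.346 to 0.839 in the 8 libraries to 14.8 in P2 and 6.54 in P5. The ratio of Car2 to Car4 differed less, at 0.953 to 1.25 in the 8, 0.815 in P2 and 0.836 in P5. The summed FPKM of the family was 1149 to 2723 in the 8, 4288 in P2 and 3252 in P5, or 0.302 to 0.682%, 1.13% and 0.832% of all FPKM in the library.

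**Figure D3:**
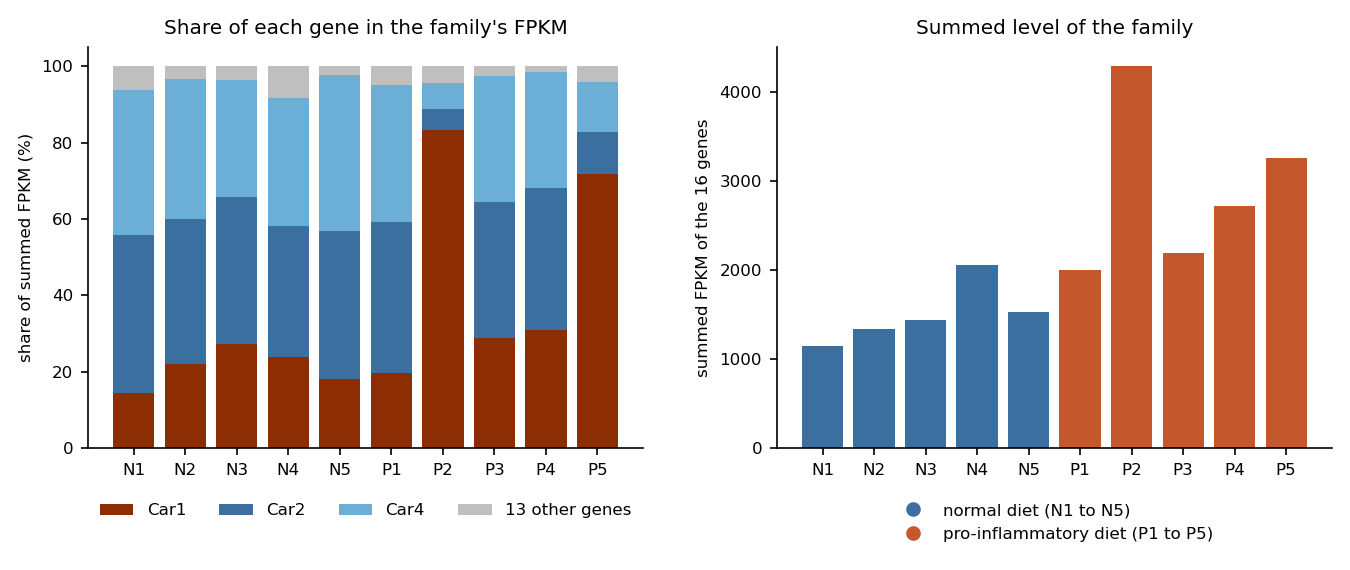
Left, share of Car1, Car2, Car4 and the 13 other genes in the summed carbonic anhydrase FPKM of each library (%). Right, the summed FPKM of the 16 genes: Car1 takes 83.2% of 4288 FPKM in P2 and 71.8% of 3252 in P5, against at most 31.0% elsewhere.

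By mean FPKM over the 10 libraries (SD in brackets), Car1 at 940 (1116) came first, then Car2 at 601 (226) and Car4 at 566 (172). Their order was not the same in all libraries. Car1 was above Car2 in only 2 libraries, P2 and P5, and below it in the other 8, so its first place by mean came from P2 and P5. Car2 was above Car4 in 7. Car4 was above the next gene, Car3, in all 10. Car3 at 37.1 (41.8) and Car9 at 21.4 (3.10) took either order, with Car3 above in 5. Car9 was above Car13 at 13.9 (5.25) in all 10, Car13 was above Car12 at 6.90 (7.76) in 9, and Car12 was above Car8 at 5.33 (7.95) in all 10. Car8 was above Car15, at 2.36 (0.439), in only 4.

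Of the 9 genes of the family that are not among the 7, 3 had a mean of at least 1 FPKM: Car9 and Car15, which encode membrane-bound enzymes, and Car11, a relative without activity, at 1.34 FPKM. The other 6 were too low to be tested. They were the mitochondrial Car5a (mean 0.0641 FPKM) and Car5b (0.685), the secreted Car6 (0.00873), the cytosolic Car7 (0.456), the inactive Car10 (0.0382) and the transmembrane Car14 (0.684). Car6 had no read in 8 libraries and Car5a none in 5.

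The study's comparison is that of the diets. On log2(FPKM + 1), limma with Benjamini-Hochberg adjustment called 0 of the 12345 genes tested (0.00%) at an adjusted p of 0.05, and limma voom on the recovered reads also called 0. The unadjusted p was below 0.05 for 1007 genes with higher (8.16%) and 1142 with lower (9.25%) values in the pro-inflammatory diet. All 7 genes passed the filter of a mean of 1 FPKM, and none passed the test.

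**Figure D4:**
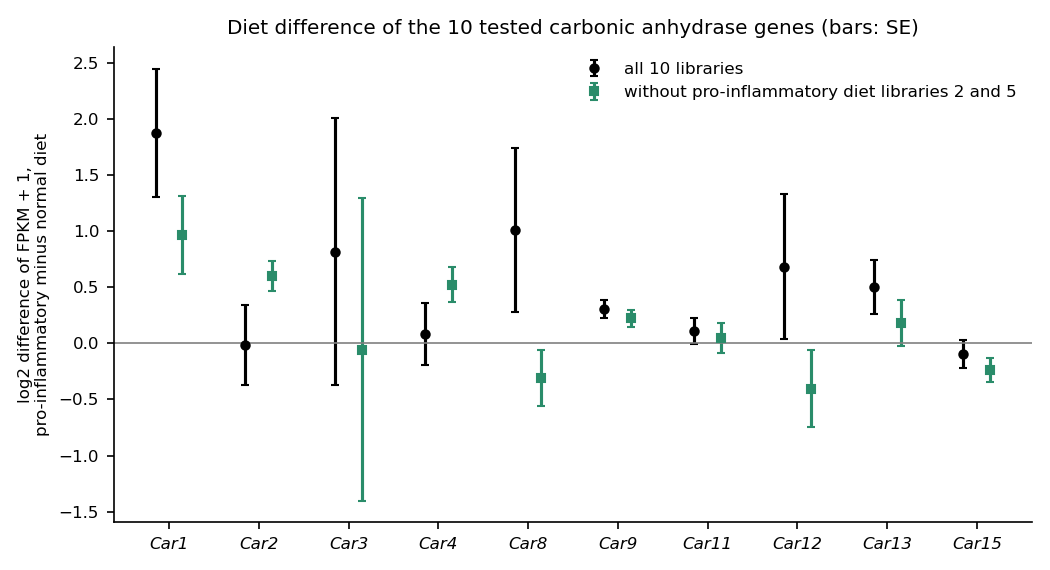
Difference in log2(FPKM + 1) between the diets (pro-inflammatory minus normal, with its standard error) for the 10 carbonic anhydrase genes tested, over all 10 libraries and without P2 and P5. Without P2 and P5 the difference of Car1 goes from 1.88 to 0.97, that of Car2 from -0.02 to 0.60 and that of Car4 from 0.09 to 0.52, and those of Car8 and Car12 are below 0.

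As a description, 6 of the 7 genes had a higher mean log2 value in the pro-inflammatory diet and 1 a lower one. Over all genes tested, 5817 of 12345 were higher. The median difference of the 7 was 0.68, against -0.01 over all genes tested. Without P2 and P5, 4 of the 7 were higher and 3 lower with a median of 0.18, where 6019 of 12259 genes were higher. With the log2 Hoxb13 level as a covariate, 5 were higher and 2 lower with a median of 0.29. In that fit 5834 of 12345 genes were higher. The 7 genes were chosen with these values known, so nothing is read from these counts. Hoxb13 was low only in P2 and P5, so the covariate mostly marks those libraries. Its fit is not independent of leaving them out and cannot separate diet from Hoxb13 level. Which libraries carried a difference depended on the gene. Car1 averaged 1555 ± 1356 FPKM (SD, n = 5) in the pro-inflammatory and 324 ± 124 in the normal diet, a log2 difference of 1.88 with a standard error of 0.57. Without P2 and P5 it was 0.97 (standard error 0.35).

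For Car2 and Car4 the diets hardly differed over all libraries. Car2 averaged 634 ± 322 FPKM (SD, n = 5) against 568 ± 90.2, a log2 difference of -0.02 (standard error 0.36). Car4 averaged 598 ± 225 against 535 ± 114, a log2 difference of 0.09 (standard error 0.28). Without P2 and P5 both differences were positive, at 0.60 (standard error 0.14) for Car2 and 0.52 (standard error 0.16) for Car4, with P1, P3 and P4 averaging 858 ± 129 and 756 ± 61.2 FPKM (SD, n = 3).

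For both genes the normal diet libraries were not all alike. N1, N2 and N3 held the 3 lowest Car2 and the 3 lowest Car4 values outside P2 and P5. The same 3 were lowest in Dbp, a clock output gene whose RNA follows the time of day, at 1.79, 3.29 and 6.69 FPKM against 12.4 to 54.3 in the other 7. Without N1, N2 and N3, but with P2 and P5 kept, the log2 differences were -0.22 for Car2 and -0.23 for Car4. Their sign rests on P2 and P5, since P1, P3 and P4 were above N4 and N5 for both genes. With all libraries and the log2 Hoxb13 level as a covariate, which mostly marks P2 and P5, the differences were 0.50 and 0.47. The time of sampling was not analysed here, and its part in these values was not tested.

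Car8 and Car12 owed their higher pro-inflammatory means to P2 and P5. Car8 averaged 8.84 ± 10.5 FPKM (SD, n = 5) against 1.82 ± 0.923, a log2 difference of 1.01 (standard error 0.73) that was -0.31 without these libraries. Car12 averaged 10.02 ± 10.4 against 3.77 ± 1.96, a log2 difference of 0.68 (standard error 0.65) that was -0.40 without them. With the Hoxb13 covariate, which mostly marks P2 and P5, the differences were -0.01 and -0.17.

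Car13 averaged 16.6 ± 5.83 FPKM (SD, n = 5) against 11.1 ± 3.03, a log2 difference of 0.50 (standard error 0.24), or 0.18 without P2 and P5. Car3 averaged 39.7 ± 34.9 against 34.4 ± 52.0, a log2 difference of 0.82 with a standard error of 1.19. For both genes the standard deviation within a diet was of the order of the difference or larger.

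Car9, the transmembrane enzyme known as a target of the hypoxia response, was outside the 7 genes and was the only one of the 10 carbonic anhydrase genes tested whose diets did not overlap. It was at 19.4, 20.2, 17.2, 20.2 and 17.8 FPKM in N1 to N5 and at 20.7, 25.0, 23.9, 22.3 and 26.8 FPKM in P1 to P5. The log2 difference of 0.31 (standard error 0.08) did not pass (limma, Benjamini-Hochberg adjusted p = 0.166). Among all genes tested, 3.83% had diets that did not overlap. P5 and P2 were also the highest libraries here, and without them the difference was 0.22. The differences of Car11 (0.11, adjusted p = 0.605) and Car15 (-0.09, adjusted p = 0.691) did not pass in the same limma fit either.

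The partners of carbonic anhydrases in acid-base and ion transport were followed with a list of 25 genes, of which 24 are in the table and 18 had a mean of at least 1 FPKM. None of the 18 passed the limma test (background 0.00%). Of the 18, 8 had positive and 10 negative differences, against 5817 positive and 6528 negative over all genes tested. The median of the 18 was -0.21 against -0.01 over all genes tested. Without P2 and P5 the direction turned, with 10 positive and 8 negative differences and a median of 0.06, and without P2 alone the median was -0.03. The smallest p belonged to Slc9a3r1, a scaffold protein that binds Slc9a3, with 110 ± 20.7 FPKM (SD, n = 5) in the pro-inflammatory against 77.1 ± 13.6 in the normal diet (log2 difference 0.51, standard error 0.14, limma adjusted p = 0.173). The butyrate transporter Slc5a8 was at 61.3 ± 17.4 against 89.7 ± 11.1 (log2 difference -0.58, limma adjusted p = 0.193). The sodium-proton exchanger Slc9a2 differed by 0.34 (adjusted p = 0.286) and the water channel Aqp1 by 0.45 (adjusted p = 0.289) in that limma fit.

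In P2 and P5, 5 of the 18 partners were above all other libraries (background 13.9%), 6 were below (background 17.4%) and the rest were neither. The list was chosen with earlier results of these data known, so nothing is read from these counts. Those above were the anion exchanger Slc4a2, the sodium-proton exchangers Slc9a2 and Slc9a3, Slc9a3r1 and Aqp1. Those below were the chloride-bicarbonate exchanger Slc26a3, the proton-potassium pump subunit Atp12a, the anion channel Best2, the water channel Aqp8 and the transporters Slc16a1 and Slc5a8. Slc26a3 was at 59.5 FPKM in P2 and 146 in P5, against 204 to 511 in the other 8. Atp12a was at 0.896 and 3.91 FPKM, against 116 to 364. Slc9a3 was at 41.9 and 67.6 FPKM, against 18.8 to 36.9. The apical partners of the paired exchange thus differed in opposite directions in the libraries where Car1 and Car2 did. The part of Hoxb13 level, or of the place in the colon from which tissue was taken, was not tested.

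**Figure D5:**
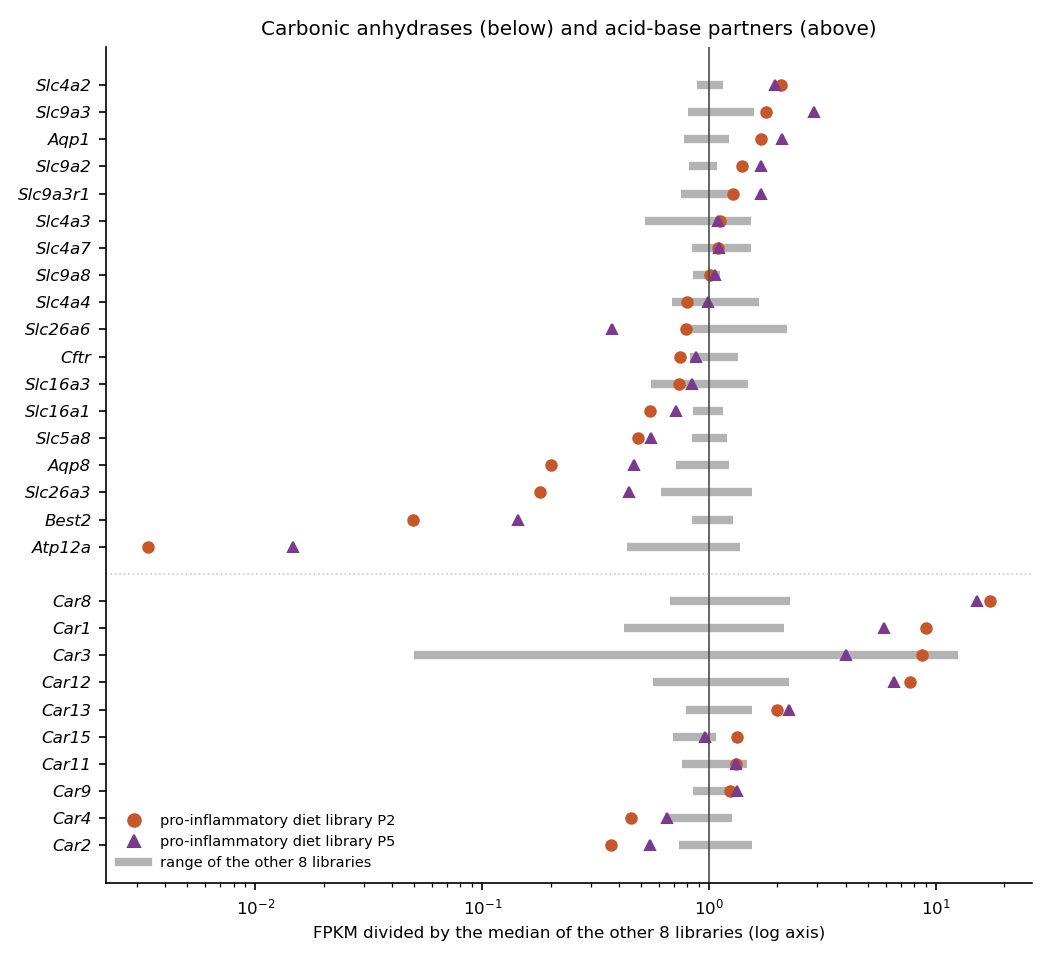
FPKM in P2 and P5 divided by the median of the other 8 libraries (log axis), with the range of those 8 in grey, for 10 carbonic anhydrase genes (below) and 18 acid-base partners (above). Car8 is at 17.3 and 15.2 and Car1 at 9.06 and 5.93 times that median, Car2 at 0.369 and 0.548, and Atp12a lowest at 0.00336 and 0.0147.

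Likeness between genes was measured as the mean absolute difference of their z-scored log2(FPKM + 1) profiles over the 10 libraries, in SD units, where 0 means identical profiles. Among the 7 genes Car2 and Car4 were most alike (0.218), followed by Car8 and Car12 (0.265) and Car1 and Car13 (0.429). Over the 8 libraries other than P2 and P5, Car2 and Car4 remained the closest pair (0.261). There Car1 came next to Car2 (0.397), from which it was far over all 10 libraries (1.28), and Car8 and Car12 were at 0.611. These profiles share libraries and depth, so the values are a description.

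Against 12110 genes outside the family, the median distance to a gene of the 7 was 1.09 to 1.16. These distances were taken over all 10 libraries only, not without P2 and P5. Of all genes tested, 13.9% were above and 17.4% below the other 8 libraries in both P2 and P5. That split weighs on the distances, so the closest genes are a description and not a relation particular to each pair. The closest to Car1 were Prodh, proline dehydrogenase (0.153), Mvp, the major vault protein (0.158), and Sqor, which oxidises sulfide in mitochondria (0.167). Prodh was at 9.22 FPKM in P2 and 8.80 in P5, against 3.14 to 5.42 in the other 8. The closest to Car2 were Fbxo4, an F-box protein (0.157), Akr1b3, aldose reductase (0.160), and Abhd5, a coactivator of fat breakdown (0.200). Akr1b3 was at 31.5 and 40.7 FPKM in P2 and P5, against 54.8 to 80.8.

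Car4 was closest to Selenbp1, a selenium-binding protein (0.108), Atp1b1, the beta subunit of the sodium-potassium pump (0.143), and Tmem45b (0.162). Selenbp1 was at 373 and 491 FPKM in P2 and P5, against 506 to 751 in the other 8. Car8 was closest to Enpp4 (0.0726), Lrp12 (0.0877) and Chn2 (0.0937), a GTPase-activating protein for Rac. Car12 was closest to Ddah1, which breaks down methylated arginines (0.0705), Sptssb, a small subunit of serine palmitoyltransferase (0.135), and the cytochrome P450 gene Cyp2c65 (0.138). Cyp2c65 was at 221 and 194 FPKM in P2 and P5, against 1.31 to 16.9.

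Car13 was closest to the palmitoyltransferase gene Zdhhc3 (0.151) and to the DNA replication genes Clspn (0.164) and Rrm2 (0.166). Rrm2, a subunit of ribonucleotide reductase, was at 11.2 FPKM in N4, the highest normal diet library for Car13 too. Car3 had the most distant neighbours, Cfd (0.265), Scd1 (0.287) and Thrsp (0.321). The latter 2 genes act in fatty acid synthesis, and Cfd is a fat cell marker of the list above.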

How the data were processed

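RNA of 10 colon samples was measured by paired-end sequencing of stranded mRNA libraries, per the labels' protocols. The authors deposited FPKM values per gene symbol. Per the submitters' processing notes, the mm10 genome was used, with HISAT2, Bowtie2, StringTie, Cufflinks, HTSeq, Trimmomatic and DESeq; what each did, and whether counting used strand, are not given in the sources used here. FPKM divides by the library total, so a few very abundant genes lower all others.

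Groups follow the diet label, and numbers the sample titles. Values of 18398 of 18398 genes were whole multiples of 1 read (tolerance 0.001 read plus 1e-08 of the count), which gave 15652783 to 18341956 reads per library. The closest pair of libraries differed by a chi-square of 11.51 per gene, so none was counted as a duplicate. The deposited FPKM values were tested on the log2 scale, after adding 1, in limma 3.58.1 under R 4.3.3 (eBayes with a mean trend, two-sided, Benjamini-Hochberg over 12345 genes with a mean of at least 1 FPKM, threshold 0.05). Limma voom was run on the recovered reads, scaled to the library total. This scaling was chosen after seeing the data, and voom with TMM factors, planned at first, is not reported. The fit was tested on simulated data, in which each gene was drawn independently around its own mean. That setting has no libraries that stand apart together as P2 and P5 do, so the simulation does not cover them. Coordinates and coding windows come from GENCODE M21 (GRCm38). Figures were drawn with matplotlib 3.10.9.

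The 7 genes and all lists were chosen with earlier results of these data known. Named besides them are every other carbonic anhydrase gene, the 4 partners with the smallest p, partners outside the range of the other 8 libraries in both P2 and P5 (added after their values were seen), list markers, and the 3 most alike genes per member. Some items are not reported here. Alternatives were 24: other pseudocounts, filters, scalings, variance models, weights, voom, a replicate block, covariates and left-out libraries.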

Additional observations from a re-analysis of the deposited data

Results flagged for a closer look

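Within the diets, 22 groups of 5 libraries (the 10 carbonic anhydrase genes tested and Hoxb13, in each diet) were searched for a library far from its neighbours, and 3 held one. For normally distributed values a gap this wide arises by chance in about 1 of 20 groups. The gaps here were taken on FPKM without logs, so that rate need not hold. The 7 carbonic anhydrase genes were also chosen by their values, so these gaps are a description and no test is drawn from them. The measure is the gap from the most extreme library to the nearest other one, divided by the whole range of the group. For Car3 in the normal diet, library N4 at 125 FPKM had a gap of 0.770 of the range, next to N1 at 29.2. For Car13 in the normal diet, N4 at 16.3 FPKM had a gap of 0.716, next to N1 at 10.6. For Car11 in the normal diet, N1 at 1.53 FPKM had a gap of 0.831, next to N4 at 1.21. N4 is the library whose skeletal muscle genes summed to 606 FPKM. Libraries P2 and P5 gave no such gap. For Car1, Car2, Car4, Car8, Car12 and Car13 they lay together at the same end of the range of their diet. For Car3 and Car15, P2 was highest and lay next to P1.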

How the results depend on the processing

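Voom with TMM factors, planned at first, is not reported, and voom scaled to library totals was added in its place after seeing the data. Under each of the 24 alternatives 0 genes passed, in the whole table as in the partner list; the smallest adjusted p was 0.0604 (limma array weights) and, with 1 library left out at a time, 0.0617 (without N4), with 0 to 0 genes passing over these fits. The replicate numbers do not pair the libraries (correlations of same-numbered deviations from -0.263 to 0.061), and limma with the replicate block also called 0 genes. No scaling moved the median of all genes by as much as 0.1. Among the 24, the sign was the opposite of that over all libraries in 7 for Car2, 4 for Car4, 3 for Car12, 2 for Car8, 1 for Car3 and 0 for Car1, Car13, Car9, Car11 and Car15 (of 23 for the last 2). The log2 difference of Car1 ran from 0.97 (without P2 and P5) to 2.25 (without P1), that of Car2 from -0.23 (without P4) to 0.60 (without P2 and P5), that of Car4 from -0.23 (without N1, N2 and N3) to 0.52, and that of Car3 from -0.06 to 1.62 (without N4). The median of the partner list, -0.21 over all libraries, was 0.06 without P2 and P5, -0.0011 without N1 to N3, -0.03 without P2 and -0.03 with the Hoxb13 covariate; the cause was not tested.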

Other observations

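RefSeq promoter sequences (GRCm38.p6) were at hand for 2 of the 7 genes, Car4 and Car12. In the 250 bases before their starts, on both strands, neither holds CAATAAA or TCGTAAA, letters that posterior HOX and CDX factors are known to bind, or TATAAA. Over 32851 promoters of the same length, 4.20%, 0.478% and 12.4% hold these letters. Endocrine cell genes of the gut differed from each other in P2 and P5. Pyy, the peptide YY gene of distal endocrine cells, was at 40.8 and 56.4 FPKM against 118 to 147 in the other 8. Chga and Chgb, granins of all such cells, were above the other 8 in both (Chgb 103 and 102 against 52.0 to 83.1). Scg2 (11.49 and 13.15 against 5.275 to 13.41) and Cpe (70.2 and 72.4 against 47.2 to 97.7) lay within the range of the other 8. The 5 genes summed to 286 FPKM in P2 and 303 in P5, against 290 to 379 in the other 8. These values were not tested.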
